A study of Homo sapiens with 12 samples.

Results

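The transcripts described here encode 10 cell surface receptors that are known from drug-tolerant, dedifferentiated melanoma: AXL, EGFR, NGFR, PDGFRA, PDGFRB, MET, ERBB3, KIT, IGF1R and FGFR1. They were listed by name, with no threshold on their values but with earlier results of these data known, and all 10 of 10 were measured among the 18417 genes of the arrays. SK-mel147, an established human melanoma line, was infected with lentiviral short hairpin RNAs, and mRNA was measured on 12 Affymetrix Human Gene 1.0 ST arrays. The control arrays carried the hairpins scrambled (2 arrays) or luciferase (2 arrays). Cells with less H2AZ2, the gene of histone variant H2A.Z.2, carried sh_37 (2 arrays) or sh_38 (2 arrays). Hairpins against H2AZ1, the gene of H2A.Z.1, were sh_83 (2 arrays) and sh_84 (2 arrays), and the labels of replicate 2 of sh_84 disagree on its hairpin. All groups thus share infection with a hairpin vector, and no uninfected cells are in the comparison. The labels do not say whether replicates came from separate infections, so the spread between arrays of a hairpin could be technical. The p-values for single hairpins reflect only that spread. Those over both hairpins of a target, with the hairpin as a random block, also take in spread between hairpins.

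As background, receptor tyrosine kinases bind a growth factor outside the cell, pair up, phosphorylate each other and feed the RAS-MAPK and PI3K-AKT pathways. Melanocytes depend on KIT and its ligand, and pigmented melanoma cells commonly use ERBB3. Dedifferentiated cells with little MITF activity often carry AXL, EGFR, NGFR or PDGFRB, and such receptors can bypass inhibitors of BRAF and MEK. NGFR is the p75 neurotrophin receptor, which has no kinase domain and belongs to the TNF receptor family.

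The promoters of the receptors whose transcripts passed the test with a hairpin are printed to show what kind of start region they have. RefSeq (GRCh38.p14) gave a promoter for 7 of the 10 receptors, and the 250 bases before the start of transcription were read 5′ to 3′ in the direction of the gene. For AXL and EGFR, which have 2 listed starts each, the upstream start was used. Capitals mark GC boxes (GGGCGG on either strand), the letters bound by SP1-type factors.
KIT, chr4:54657707-54657956, plus strand: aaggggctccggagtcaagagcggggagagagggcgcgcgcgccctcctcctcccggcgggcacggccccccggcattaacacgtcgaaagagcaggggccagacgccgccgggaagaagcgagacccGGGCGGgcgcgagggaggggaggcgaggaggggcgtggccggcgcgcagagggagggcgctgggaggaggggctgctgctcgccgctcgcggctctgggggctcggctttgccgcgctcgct
EGFR, chr7:55018767-55019016, plus strand: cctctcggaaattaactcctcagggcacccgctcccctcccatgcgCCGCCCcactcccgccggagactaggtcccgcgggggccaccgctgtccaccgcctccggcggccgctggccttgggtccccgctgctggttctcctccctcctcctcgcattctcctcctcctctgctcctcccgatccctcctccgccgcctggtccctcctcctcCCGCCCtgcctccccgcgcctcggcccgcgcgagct
MET, chr7:116671946-116672195, plus strand: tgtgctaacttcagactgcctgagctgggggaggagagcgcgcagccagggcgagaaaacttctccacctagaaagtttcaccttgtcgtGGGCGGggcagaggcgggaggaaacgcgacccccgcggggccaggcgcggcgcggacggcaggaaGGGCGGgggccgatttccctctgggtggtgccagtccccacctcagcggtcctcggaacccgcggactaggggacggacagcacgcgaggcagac
AXL, chr19:41218973-41219222, plus strand: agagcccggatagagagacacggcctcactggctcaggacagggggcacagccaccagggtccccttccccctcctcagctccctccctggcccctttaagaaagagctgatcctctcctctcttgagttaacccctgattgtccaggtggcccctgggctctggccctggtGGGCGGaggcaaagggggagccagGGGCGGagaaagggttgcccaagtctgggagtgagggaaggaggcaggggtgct
KIT holds 1 GC box and EGFR, MET and AXL hold 2 each, and 42.6% of all 35116 promoters of this length hold at least 1. The KIT promoter has 34 CpG dinucleotides, EGFR 25 and MET 24, where the median promoter has 11, and AXL has 4. None of these 4 windows holds TGANTCA, the AP-1 site (6.57% of all promoters), CACGTG, an E-box (6.34%), or TATAAA, the TATA box (10.7%), on either strand.

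All values below are log2 expression as deposited, so a difference of 1 is a doubling. Brightness depends on the probes as well as on the transcript, so changes are read between arrays for the same gene, and the brightness rank of a gene among all genes is given only to mark dim probe sets. The hairpins against H2AZ2 left 46.1% of its control level with sh_37 and 65.4% with sh_38. For H2AZ1, 19.3% was left with sh_83 and 92% with sh_84, where the fall did not pass the test (limma adjusted p = 0.859). With the H2AZ2 hairpins H2AZ1 stood at 86.2% (sh_37) and 90.5% (sh_38) of control, and neither passed (limma adjusted p = 0.19 and 0.396). KIT, PDGFRA and ERBB3 lay among the dimmest 25% of genes (mean under 6.30), as did the lineage genes TYR, TYRP1, PMEL, MLANA and SLC45A2, 5 of 11 measured. MITF, the melanocyte master regulator, averaged 8.27 over the 12 arrays and SOX10 averaged 10.47, both above that limit. Signal over background is unknown, since the deposited table holds no detection calls. The scrambled arrays resembled each other less than other arrays (r = 0.992 across genes, which are not independent replicates), and replicate 1 of scrambled was closest to replicate 2 of luciferase (r = 0.997).

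Knockdown by hairpin asks which receptor transcripts follow loss of each H2A.Z isoform. With sh_37, the hairpin that left least H2AZ2, KIT rose and EGFR, MET and AXL fell, each against the 4 control arrays. KIT about doubled (2.09-fold), while EGFR, MET and AXL stood at 73.7%, 75.3% and 80.2% of the control level. By limma with Benjamini-Hochberg adjustment over all genes, 1 of 10 receptors rose and 3 fell, where 5.72% of all genes rose and 7.19% fell (12.9% called in either direction). The count was 2 without replicate 1 of sh_37 and 1 without its replicate 2, with KIT called each time. With sh_38, sh_83 and the arrays labelled sh_84, limma called 0 of 10 receptors, with 3, 2 and 1 at an unadjusted p under 0.05, where 3702, 1878 and 1540 of 18417 genes were. Among all genes sh_38 called 4.6% (1.28% higher, 3.33% lower), sh_83 0.641% (0.152% higher, 0.489% lower) and sh_84 0.353% (0.0109% higher, 0.342% lower). Counted without a test, 7 of 10 receptors had both sh_37 arrays outside the control range, where 31.1% of all genes did, and the counts were 3 of 10 for sh_38 (22.3%), 4 of 10 for sh_83 (17.8%) and 4 of 10 for sh_84 (14.3%).

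**Figure D1:**
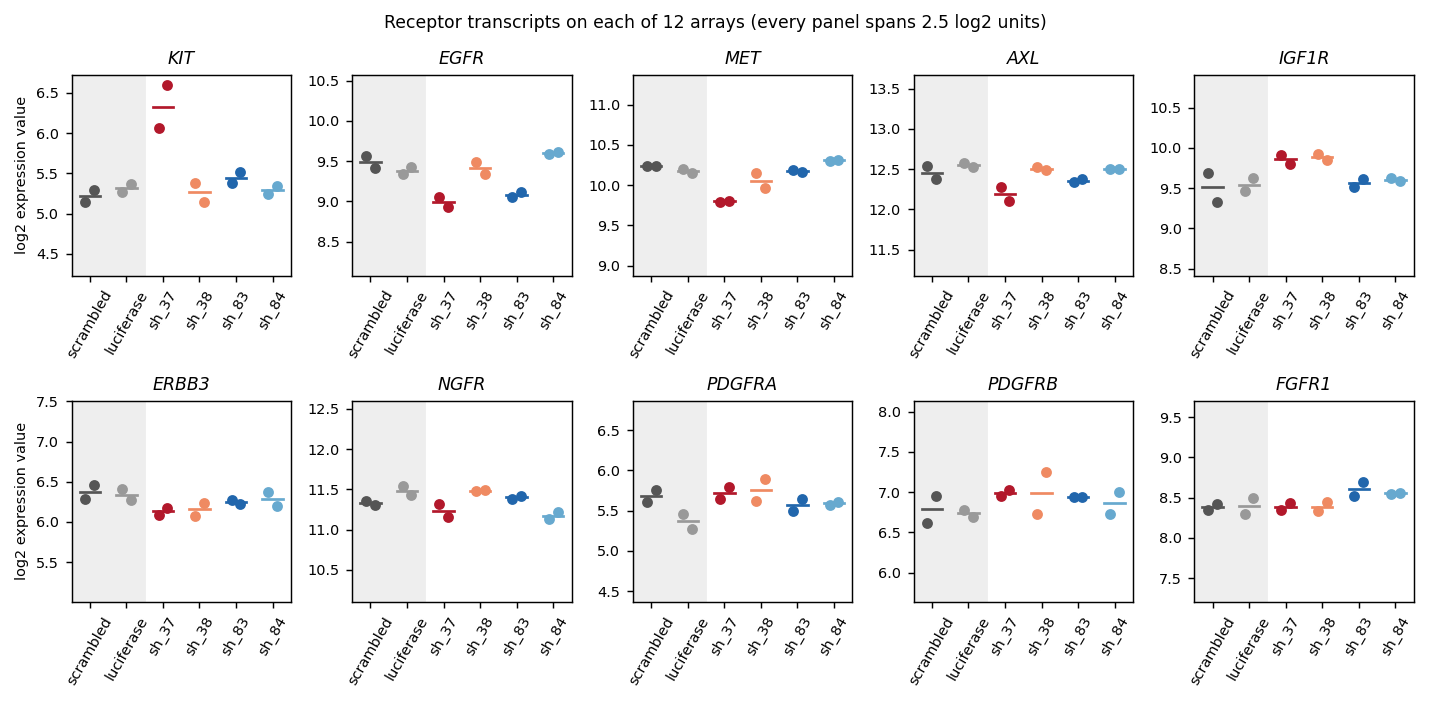
Log2 expression of each receptor on 12 arrays, grouped on the horizontal axis by hairpin (points: arrays; lines: means of 2 arrays; grey: controls). KIT lies at 6.06 and 6.60 with sh_37 and between 5.14 and 5.52 on every other array, and the 4 IGF1R values with sh_37 and sh_38 lie above all controls.

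KIT is the receptor of stem cell factor and is needed for melanocyte survival and migration. It measured 5.14 and 5.29 with scrambled, 5.27 and 5.37 with luciferase, and 6.06 and 6.60 with sh_37. It measured 5.38 and 5.15 with sh_38, 5.38 and 5.52 with sh_83 and 5.25 and 5.34 with sh_84. The sh_37 arrays stood above all 10 others. Among those, both sh_83 arrays and replicate 1 of sh_38 lay slightly above the controls, and sh_83 and sh_38 overlapped. The log2 change with sh_37 was 1.06 (SE 0.14, limma adjusted p = 0.000562), and the direct difference between sh_37 and sh_38 was 1.07 (SE 0.16, limma adjusted p = 0.00251). With sh_38 the change against control was -0.00 (SE 0.14). The sh_37 arrays differed from each other by more than any other pair for this gene (SD 0.38, n = 2), and the change was 0.79 without replicate 2 of sh_37 and 1.33 without its replicate 1.

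EGFR, the receptor of epidermal growth factor, had both arrays below all controls with 1 hairpin of each isoform. It measured 9.56 and 9.41 with scrambled and 9.34 and 9.42 with luciferase. It measured 9.05 and 8.93 with sh_37, 9.49 and 9.35 with sh_38, 9.05 and 9.12 with sh_83 and 9.59 and 9.61 with sh_84. From lowest to highest mean the order was sh_37, sh_83, luciferase, sh_38, scrambled and sh_84. The means of sh_37 and sh_83 differed by about the spread of their arrays, and those of luciferase, sh_38 and scrambled overlapped. EGFR fell with sh_37 by 0.44 on the log2 scale (SE 0.08, limma adjusted p = 0.00512), a call lost without replicate 2 of sh_37 (adjusted p = 0.0881). With sh_83 its change was -0.35 (SE 0.08, limma adjusted p = 0.104), with both arrays below all controls; this did not pass, except where the variance was allowed to depend on intensity (adjusted p = 0.0438). EGFR was lower with sh_37 than with sh_38 (difference -0.42, SE 0.10, limma adjusted p = 0.0242), a call lost when any of these 4 arrays was left out (adjusted p from 0.0522 to 0.193).

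MET, the receptor of hepatocyte growth factor, had the lowest spread of the receptors over the control arrays (SD 0.04, n = 4). It measured 10.24 and 10.24 with scrambled, 10.20 and 10.15 with luciferase, 9.80 and 9.80 with sh_37 and 10.15 and 9.96 with sh_38. With sh_83 it measured 10.18 and 10.16, and with sh_84 10.30 and 10.32. The 4 arrays with H2AZ2 hairpins all lay below the 4 controls, though replicate 1 of sh_38 only just. In that comparison 1 of 10 receptors lay wholly above the controls and 2 wholly below. Of all genes 11.6% had no overlap in either direction. MET fell with sh_37 by 0.41 (SE 0.08, limma adjusted p = 0.00493), a call lost without either sh_37 array (adjusted p = 0.0603 and 0.0569) at nearly the same size. With sh_38 the change was -0.15 (SE 0.08, limma adjusted p = 0.291), and the difference between the hairpins, -0.26 (SE 0.09, limma adjusted p = 0.129), did not pass.

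AXL binds GAS6 and is widely used to mark dedifferentiated melanoma. It measured 12.53 and 12.38 with scrambled, 12.58 and 12.52 with luciferase, 12.27 and 12.10 with sh_37 and 12.52 and 12.48 with sh_38. With sh_83 it measured 12.34 and 12.37, and with sh_84 12.50 and 12.49. Both sh_37 arrays lay below all controls, and so did both sh_83 arrays by a small margin. AXL fell with sh_37 by 0.32 (SE 0.08, limma adjusted p = 0.0242). This is the least stable of the 4 calls: it was lost against scrambled alone (adjusted p = 0.102) and without replicate 1 of scrambled (0.0578), replicate 1 of luciferase (0.0521) or either sh_37 array (0.056 and 0.294). The change with sh_83 was -0.15 (SE 0.08, limma adjusted p = 0.583).

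IGF1R, the receptor of insulin-like growth factors, had all 4 arrays with H2AZ2 hairpins above the controls. In that comparison 11.6% of all genes had no overlap in either direction. It measured 9.69 and 9.33 with scrambled, 9.46 and 9.63 with luciferase, 9.91 and 9.80 with sh_37 and 9.93 and 9.85 with sh_38. With sh_83 it measured 9.51 and 9.62, and with sh_84 9.62 and 9.59. The 4 arrays with H2AZ2 hairpins also lay above the 4 with H2AZ1 hairpins, where 13.3% of all genes had no overlap in either direction. The log2 change was 0.33 with sh_37 (SE 0.10, limma adjusted p = 0.0667) and 0.36 with sh_38 (SE 0.10, limma adjusted p = 0.0823), so neither passed. Over both hairpins the change was 0.35 (SE 0.09, limma adjusted p = 0.057), which also missed the threshold. It passed when the arrays were quantile normalised again (0.40, limma adjusted p = 0.0171). Without replicate 1 of scrambled, both single-hairpin changes passed (0.42 and 0.45, limma adjusted p = 0.0126 and 0.0234). A dimmer probe set of IGF1R stood at 0.32 with sh_37 but -0.01 with sh_38, so the probe sets disagree for sh_38.

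**Figure D2:**
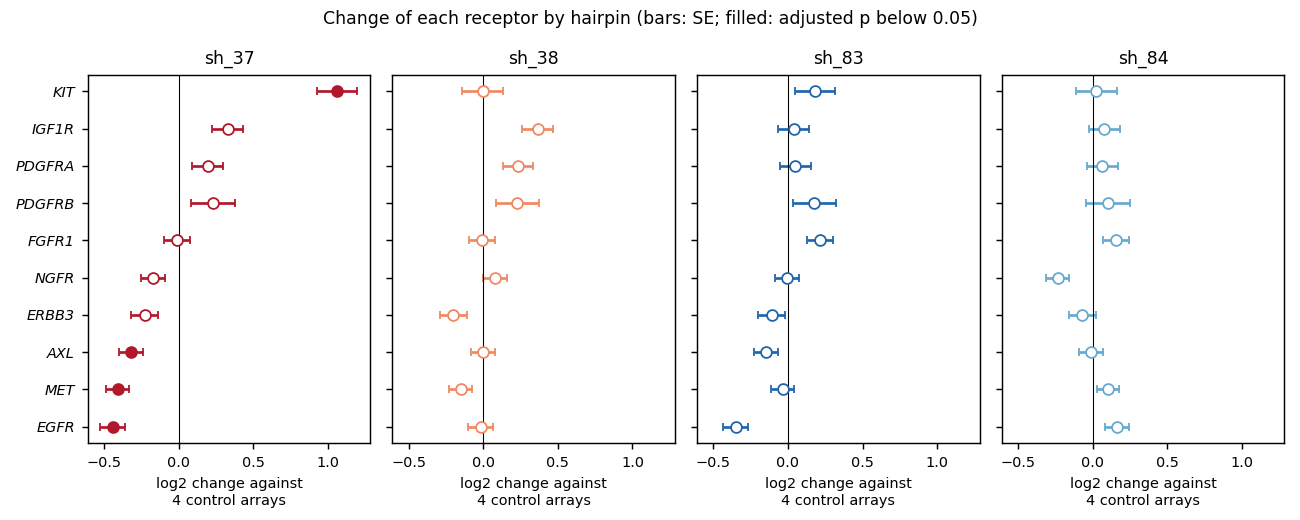
Log2 change of each receptor against the 4 control arrays, in a panel per hairpin (points: fitted change; bars: SE; filled points: limma adjusted p below 0.05). Filled points appear only in the sh_37 panel, for KIT (1.06), AXL (-0.32), MET (-0.41) and EGFR (-0.44).

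The other 5 receptors passed no test against control in the main setting. ERBB3, which pairs with ERBB2 to bind neuregulins and has a weak kinase, measured 6.29, 6.45, 6.41 and 6.28 on the controls, 6.09 and 6.17 with sh_37 and 6.08 and 6.24 with sh_38. All 4 values with H2AZ2 hairpins thus lay below the controls, where 11.6% of all genes had no overlap in either direction. The changes were -0.23 with sh_37 and -0.20 with sh_38 (SE 0.09 each, limma adjusted p = 0.149 and 0.248). The ERBB3 change with sh_37 passed when the arrays were quantile normalised again (-0.29, limma adjusted p = 0.0343). NGFR measured 11.13 and 11.21 in the arrays labelled sh_84, below every control, which ran from 11.30 to 11.54 (change -0.23, SE 0.08, limma adjusted p = 0.36). The control hairpins themselves differed for NGFR by -0.15, scrambled minus luciferase (SE 0.09).

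PDGFRA and PDGFRB bind platelet-derived growth factors. PDGFRA measured 5.61 and 5.76 with scrambled but 5.46 and 5.27 with luciferase, and the changes of 0.20 with sh_37 and 0.23 with sh_38 (SE 0.10 each) were smaller than that gap of 0.32 between the control hairpins. PDGFRB stood at 0.23 with both H2AZ2 hairpins (SE 0.15), and its sh_38 arrays were far apart at 6.73 and 7.26. FGFR1, a fibroblast growth factor receptor, measured 8.52 and 8.69 with sh_83 and 8.54 and 8.56 in the arrays labelled sh_84, while the controls ran from 8.30 to 8.49. All 4 arrays with H2AZ1 hairpins were thus above the controls, where 3.33% of all genes had no overlap in either direction. The change of 0.19 (SE 0.08) did not pass (limma adjusted p = 0.9999). The arrays labelled sh_84 had 92% of the control level of H2AZ1.

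Over both hairpins of a target, with the hairpin as a random block, limma called 0 of 10 receptors for H2AZ2 against control, where 3.31% of all genes were called (0.863% higher, 2.44% lower); 4 receptors and 3128 genes had an unadjusted p under 0.05. The median change of the receptors was -0.03 and that of all genes 0.03. KIT stood at 0.53 (SE 0.24) and EGFR at -0.23 (SE 0.15), and these larger errors go with the gap between sh_37 and sh_38 given above. MET stood at -0.28 (SE 0.09, limma adjusted p = 0.111). Without hairpin sh_38 the count was 2, KIT and MET, where 1681 genes were called. For H2AZ1 against control limma called 0 of 10 receptors and 0% of all genes, with 1 receptor and 636 genes at an unadjusted p under 0.05.

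The isoforms were also compared directly. For H2AZ2 against H2AZ1 hairpins limma called 0 of 10 receptors (4.35% of all genes, 2.08% higher and 2.28% lower; 3 receptors and 3128 genes at an unadjusted p under 0.05). MET came nearest at -0.31 (SE 0.09, limma adjusted p = 0.0628), and it passed without hairpin sh_38 at -0.44 (adjusted p = 0.00493). Against sh_83 alone, the H2AZ1 hairpin with a measured fall, limma again called 0 of 10 receptors (5.23% of all genes, 2.85% higher and 2.38% lower; 4 receptors and 3115 genes at an unadjusted p under 0.05), with KIT at 0.35, MET at -0.24, IGF1R at 0.31 and FGFR1 at -0.22. KIT passed there without replicate 1 of sh_37 (limma adjusted p = 0.0466). Between sh_37 and sh_38 it called 2 of 10, KIT and EGFR, beside 6.27% of all genes (4.07% higher, 2.2% lower). Scrambled against luciferase gave 0 of 10 receptors and 0% of all genes, with 1 receptor and 1384 genes at an unadjusted p under 0.05.

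Ligands of these receptors and their relatives were listed too. Of 27 measured ligand genes 4 rose and 0 fell over both H2AZ2 hairpins, where 0.863% of all genes rose: FGF1, PROS1, PDGFB and GAS6. These calls lay near the threshold (limma adjusted p from 0.0315 to 0.0457). The genes called in this comparison dropped from 609 to 14 without hairpin luciferase and 43 without scrambled. Single genes were read under alternative settings for the receptors and targeted genes alone, so no ligand call was checked that way. The median change of the list was 0.06, and that of all genes 0.03. PROS1, protein S, a ligand of the AXL relatives TYRO3 and MERTK, read from the brighter of 2 probe sets, measured 8.86, 9.03, 9.07 and 9.44 on the controls, 9.88 and 9.93 with sh_37, 9.73 and 9.65 with sh_38 and 9.67 and 9.74 with sh_83. All 6 arrays in which a targeted isoform fell thus lay above the controls, and the arrays labelled sh_84 lay within their range. PROS1 rose with sh_37 (0.80), sh_38 (0.59) and sh_83 (0.60), with limma adjusted p = 0.000559, 0.00926 and 0.0341. GAS6, the main ligand of AXL, rose over both H2AZ2 hairpins by 0.30 (SE 0.08, limma adjusted p = 0.045), and stood at 0.22 with sh_37 and 0.38 with sh_38. FGF1, which activates all FGF receptors, rose by 0.51 with sh_37 and 1.06 with sh_38 (limma adjusted p = 0.0396 and 0.00281). PDGFB rose with sh_37 (0.87, limma adjusted p = 0.0016) and stood at 0.41 with sh_38 (limma adjusted p = 0.12).

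With sh_37 alone 6 of 27 ligands rose and 0 fell (5.72% and 7.19% of all genes), and these included KITLG, PDGFD and EGF, which were singled out after their values were seen. KITLG, stem cell factor, the ligand of KIT, measured 8.45 and 8.50 with sh_37 and from 6.93 to 7.66 on the controls. Its change was 1.22 with sh_37 (SE 0.14, limma adjusted p = 0.000344) and -0.23 with sh_38 (limma adjusted p = 0.377), a difference between the hairpins of 1.45 (SE 0.17, limma adjusted p = 0.000603). KIT and its ligand were thus both higher in the sh_37 arrays and not in the sh_38 arrays. With sh_38, 3 of 27 ligands rose and 1 fell (1.28% and 3.33% of all genes); the latter was TGFA, an EGFR ligand singled out after its values were seen (-0.53, limma adjusted p = 0.0148). For MET and ERBB3 the ligands did not pass: HGF stood at -0.03 and NRG1, a neuregulin, at -0.25 with sh_37.

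**Figure D3:**
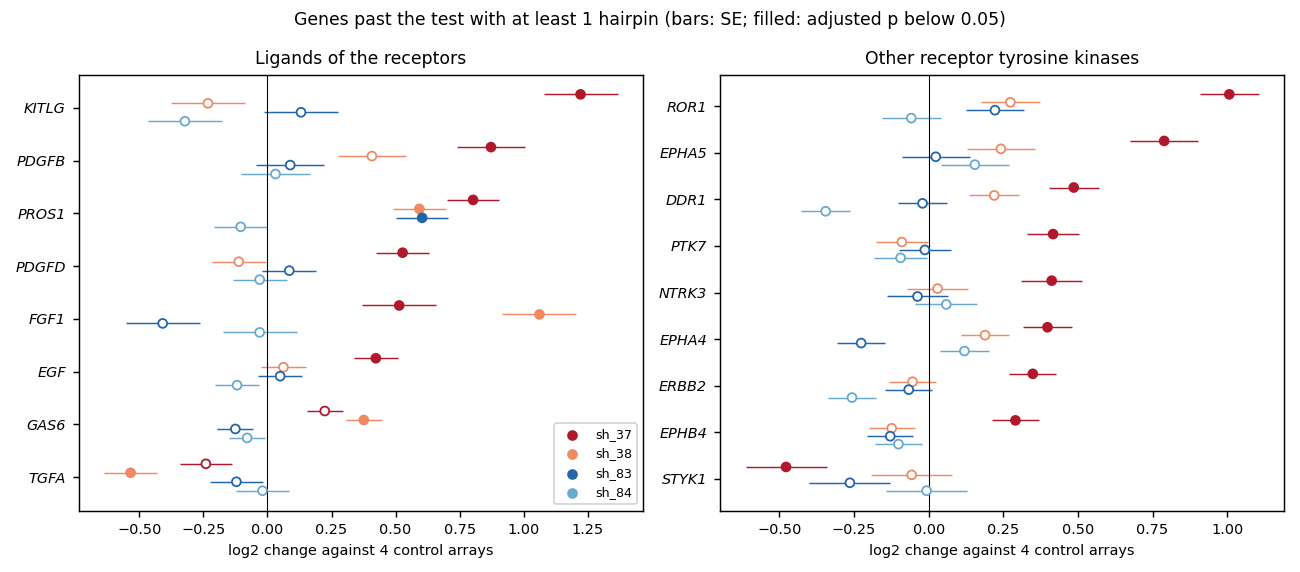
Log2 change against the 4 control arrays (bars: SE; filled: limma adjusted p below 0.05) for ligand genes and other receptor tyrosine kinases called with at least 1 hairpin. PROS1 is filled for sh_37, sh_38 and sh_83, and KITLG and ROR1 for sh_37 alone.

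Other receptor tyrosine kinases, 44 measured of 49 listed, were read beside the 10 receptors. With sh_37, 8 rose and 1 fell, where 5.72% of all genes rose and 7.19% fell, and the list's median change was 0.08 (0.01 for all genes). ROR1, a receptor of WNT5A, led with 1.01 (SE 0.10, limma adjusted p = 0.000112). Its arrays stood at 8.58 and 8.72 with sh_37 and from 7.53 to 7.76 on the controls. EPHA5, an ephrin receptor, rose by 0.79, and ERBB2, the partner of ERBB3, by 0.35. DDR1, PTK7, NTRK3, EPHA4 and EPHB4 rose by 0.49, 0.42, 0.41, 0.40 and 0.29, and STYK1 fell by 0.48. Of all 9, ROR1 and EPHA5 are named by the rule for H2AZ2 hairpins, and the others were singled out after their values were seen. The control hairpins differed for DDR1 and EPHA4. DDR1, read from the brightest of 3 probe sets, measured 9.47 and 9.50 with scrambled, 9.89 and 9.70 with luciferase and 10.17 and 10.08 with sh_37. EPHA4 measured 8.29 and 8.24 with scrambled, 8.49 and 8.59 with luciferase and 8.87 and 8.73 with sh_37. Tested directly, sh_37 and sh_38 differed for ROR1, EPHA5, ERBB2, PTK7 and EPHB4 (limma adjusted p from 0.00336 to 0.0328), where 6.27% of all genes differed. Over both H2AZ2 hairpins limma called 0 of 44, where 3.31% of all genes were called. At an unadjusted p under 0.05 were 7 of 44, beside 3128 of 18417 genes. ROR1 stood at 0.64 over both hairpins (SE 0.17, limma adjusted p = 0.0593). The other hairpins called 0 of 44 each, where sh_38 called 4.6%, sh_83 0.641% and sh_84 0.353% of all genes. For these hairpins 9, 3 and 5 of 44 had an unadjusted p under 0.05, beside 3702, 1878 and 1540 of 18417 genes.

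Among genes next in the signal, CBLB, a ubiquitin ligase that marks active receptors for degradation, rose with sh_37 by 1.14 (SE 0.10, limma adjusted p = 6.56e-05) and stood at 0.26 with sh_38. SOS2, an exchange factor that activates RAS, stood at 0.16 with sh_37 and fell with sh_38 by 0.94 (limma adjusted p = 0.00262). Of 18 adaptors and negative regulators 3 rose with sh_37 (5.72% of all genes rose), and sh_38 gave 1 higher and 2 lower (1.28% and 3.33% of all genes). Of 7 co-receptors, partners and sheddases 3 rose and 1 fell with sh_37 (5.72% and 7.19% of all genes). GPC1, a heparan sulphate co-receptor of FGF2, rose with both H2AZ2 hairpins, by 1.01 with sh_37 and 0.48 with sh_38 (limma adjusted p = 0.000232 and 0.0352).

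State genes were examined beside the receptors. Of 12 dedifferentiated state genes 1 rose and 3 fell with sh_37 (5.72% and 7.19% of all genes). NT5E, the surface enzyme CD73, fell from 11.18 to 11.26 on the controls to 9.66 and 9.72 with sh_37 (log2 change -1.52, SE 0.07, adjusted p = 1.2e-06 by limma). It stood at -0.10 with sh_38. FOSL1, an AP-1 subunit, fell by 0.46 with sh_37 and stood at -0.06 with sh_38. FN1 and ZEB1 were singled out after their values were seen. FN1, fibronectin, rose by 0.83 with sh_37 and fell by 0.48 with sh_38 (limma adjusted p = 0.000115 and 0.00846). ZEB1 measured 8.90 and 8.95 with sh_37 and from 9.11 to 9.33 on the controls. Of 11 melanocyte lineage genes 0 rose and 2 fell with sh_37, beside the same shares of all genes, PAX3 (-0.40) and SOX10 (-0.30, limma adjusted p = 0.05). PAX3, a regulator of MITF, fell over both H2AZ2 hairpins by 0.49 (SE 0.11, limma adjusted p = 0.0265), and MITF itself stood at -0.11 with sh_37.

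Markers of other cell types were read on the same arrays. Of 5 fibroblast markers, LUM and COL1A1 rose with sh_37 (1.27 and 0.69), where 5.72% of all genes rose. LUM also differed between controls, at 8.46 and 8.41 with scrambled and 9.14 and 9.25 with luciferase. It rose by 0.38 with sh_38 and fell by 0.85 with sh_84 (limma adjusted p = 0.0374 and 0.00396). With sh_37 COL1A2 measured 6.73 and 6.96 (controls 6.60 to 6.98) and PDPN 6.37 and 6.61 (6.25 to 6.61). The list mean ran from 7.04 to 7.13 with sh_37, 6.80 to 6.94 with sh_38 and 6.52 to 6.71 on the controls. DCN, a defining fibroblast gene, lay among the dimmest 25%. None of the 5 keratinocyte, 4 endothelial and 3 leukocyte markers was called with sh_37, where 12.9% of all genes were. Of these markers 4 keratinocyte, 2 endothelial and 2 leukocyte genes also lay among the dimmest 25%. The part of these markers in the receptor changes was not tested. In whole cultures, fewer cells with a transcript and less of it per cell cannot be told apart.

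Position was compared as a feature that the choice of receptors did not use. KIT lies between PDGFRA and KDR among the measured genes of its chromosome, and both encode receptor tyrosine kinases. With sh_37 PDGFRA stood at 0.20 (limma adjusted p = 0.29) and KDR at -0.16 (0.428), so the measured neighbours of KIT did not pass. For MET, the neighbour CAV1, caveolin, fell by 0.32 with sh_37 (limma adjusted p = 0.0138) and CAPZA2 stood at -0.19. The neighbours of EGFR, VSTM2A and LANCL2, and of AXL, CYP2S1 and HNRNPUL1, did not pass, the last at -0.29 (limma adjusted p = 0.0578). Beside receptors that were not called, LETM2 next to FGFR1 fell with sh_37 (-0.51, limma adjusted p = 0.00228). IKZF4 next to ERBB3 fell with sh_38 (-0.50, limma adjusted p = 0.0137). The other neighbours of uncalled receptors passed with no hairpin, apart from KIT itself, next to PDGFRA.

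**Figure D4:**
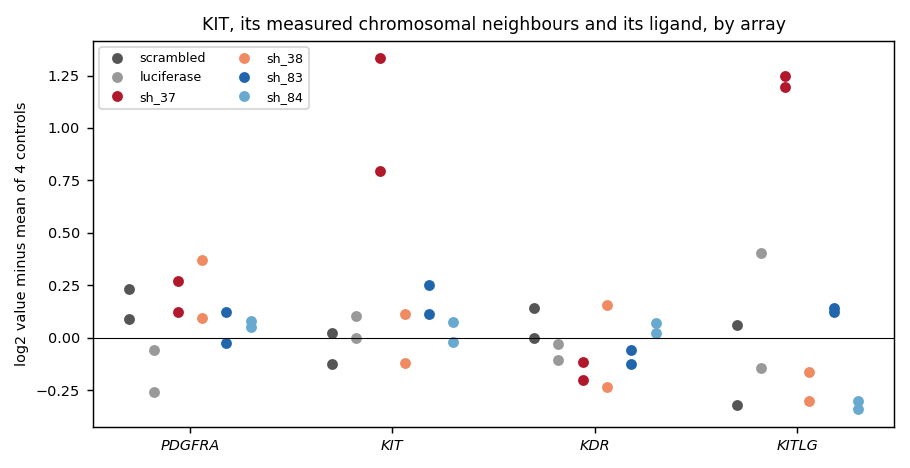
Log2 value of KIT, of PDGFRA and KDR beside it on the chromosome, and of its ligand KITLG, minus the mean of the 4 control arrays, with a point per array. The sh_37 points stand apart for KIT and KITLG, and lie near the other arrays for PDGFRA and KDR.

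By root mean square difference of centred profiles over the 12 arrays, the genes closest to KIT were LRP1B (0.15) and TUBB2B (0.15), where KIT against a flat line gave 0.41. PTAR1 and ARHGEF28 lay closest to EGFR (0.07 each, against 0.22), with PTAR1 at -0.38 with sh_37 and -0.26 with sh_83. HAUS4 and ENO2 lay closest to MET (0.05 each, against 0.17), and MLLT11 and RNFT2 closest to AXL (0.05 each, against 0.13). This likeness is a description over arrays that share hairpins, and 5614 genes came nearer to KIT than a flat line did.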

How the data were processed

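The deposited values are log2 expression, 1 per probe set and array; the submitters' processing notes name RMA. Filters and software versions: not given in the sources used here. Array medians ran from 7.00 to 7.10, and the values were used as deposited. Genes were named from the 19460 of 33297 probe sets with 1 symbol in the platform annotation (1754 had several, 12083 were not listed), 19429 of them matched to RefSeq by Entrez ID. The brightest probe set per gene was kept, for 18417 genes.

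Tests used limma 3.58.1 in R 4.3.3 with Benjamini-Hochberg adjustment over all genes and a threshold of 0.05. Each hairpin was tested in a fit of 6 groups with 2 arrays each; spread among hairpins to 1 target does not enter it. Targets came from a fit with the hairpin as a random block (consensus correlation 0.157). The fits were tested on simulated arrays with 18417 genes: for sh_37 against control they found 52% of log2 changes of 0.5 and 94% of those of 1, with 3.31% false calls; for H2AZ2 hairpins against control, 72%, 94% and 7.26%. Noise was independent between genes there, and 100 genes were changed by each size, where 2377 genes were called with sh_37 in the data. The run for sh_37 had no spread between hairpins, so its rate of false calls does not cover such spread. For H2AZ2 hairpins each added change was equal in sh_37 and sh_38. The rates for H2AZ2 hairpins thus do not cover changes that differ between the hairpins, such as that of KIT. Named genes are the 10 receptors, the targeted genes, and up to 4 called members of each list over both H2AZ2 hairpins, or the 2 largest where none was called. FN1, ZEB1, SOX10 and MITF lie outside this rule and were named after their values were seen. The receptors and lists were chosen with earlier results of these data known. Same-numbered replicates paired in part: correlations of their deviations ran from -0.47 to 0.68 over 15 hairpin pairs, with 9 over 0.1. Scrambled, sh_37, sh_38 and sh_84 were positive with each other (0.38 to 0.68). Luciferase was negative with each of them (-0.13 to -0.47). The number of arrays limits the precision. The cause of the conflicting label of replicate 2 of sh_84 is not known, and its title was followed. Figures used matplotlib 3.10.9.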

Additional observations from a re-analysis of the deposited data

Results flagged for a closer look

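KIT differed between the H2AZ2 hairpins in the direct test, by 1.07 (sh_37 minus sh_38, limma adjusted p = 0.00251). EGFR differed between the same hairpins, by -0.42 (limma adjusted p = 0.0242). These hairpins left different amounts of H2AZ2, 46.1% and 65.4% of the control level, and the part of that gap in either difference was not tested. Among the 4 arrays with H2AZ2 hairpins, replicate 1 of sh_37 stood apart for H2AZ1 at 11.97, with the nearest other array at 12.09. Of 36 sets of 4 arrays examined, 1 was flagged this way, and chance flags about 5% of sets.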

How the results depend on the processing

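With sh_37, 4 of 10 receptors were called in the main setting and from 1 to 4 with an array left out, 6 after quantile normalisation (IGF1R and ERBB3 added) and 5 with an intensity trend (IGF1R added); KIT passed in all 20 alternatives (adjusted p from 0.00017 to 0.00747), among which the filter on dim genes had no value for it. For sh_37 against sh_38 the count was 2, from 1 to 2 with an array left out, and 4 with an intensity trend. With an intensity trend the receptor count was 1 for H2AZ2 hairpins against control, against H2AZ1 hairpins and against sh_83. It was also 1 for sh_38 and for sh_83 against control. The main count was 0 each time. The all-gene counts rose too, from 609 to 779, 802 to 989, 964 to 1394, 848 to 1263 and 118 to 281 in that order. For sh_37 against control they rose from 2377 to 2870, and for sh_37 against sh_38 from 1155 to 1523. Normalising by quantiles again gave 1 receptor for H2AZ2 hairpins against control, against H2AZ1 hairpins and against sh_83, and for sh_38 against control. The all-gene counts there were 518, 838, 1332 and 1016 in that order, and 2755 for sh_37 against control. Without the hairpin block the receptor count was 1 for H2AZ2 against control (all-gene count 957) and 2 for H2AZ2 against H2AZ1 hairpins (1211). Without hairpin sh_38 it was 2 for each (all-gene counts 1681 and 1795). Leaving out an array gave from 0 to 1 for these 2 comparisons, for H2AZ2 hairpins against sh_83 and for sh_38 against control. No call reversed under any alternative run. The count of all genes called moved more: for H2AZ2 against control from 609 to 14 without hairpin luciferase, 43 without scrambled, 1681 without sh_38 and 957 without the hairpin block, and from 66 (without replicate 1 of scrambled) to 847 with an array left out. For sh_37 it ran from 922 to 2510 and for sh_38, with 848, from 148 to 1431. It ran from 6 to 111 for sh_83 (118 with every array), 2 to 54 for sh_84 (65), 150 to 1071 for H2AZ2 hairpins against sh_83 (964) and 272 to 940 for H2AZ2 against H2AZ1 hairpins (802), so these background shares are themselves unsteady. With the replicate block the receptor counts were 4 for sh_37 against control and 0 for H2AZ2 against control. The genes called were 445 for H2AZ2 against control (609 without the block), 2723 for sh_37 (2377) and 1110 for sh_38 (848). As same-numbered arrays shared deviations in only some hairpin pairs, this says nothing of a weaker or stronger effect. Signal over background is unknown, which limits what the dim KIT, PDGFRA and ERBB3 values can show.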
